A study of Saccharomyces cerevisiae with 6 samples.

Results

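The nucleolar ribosome assembly factors described here are the 58 yeast genes whose names are UTP, NOP, RRP, NOC or NSA followed by a number, out of 5449 genes tested. The name rule found 18 UTP, 17 NOP, 18 RRP, 3 NOC and 2 NSA genes, and each had a single probe set. They were measured in Saccharomyces cerevisiae with wild-type histone H2A (3 arrays) and with H2A R78A (3 arrays), in which an arginine of the histone that reaches into the DNA minor groove is replaced by alanine. All cultures grew at 30 °C in YPD, a rich glucose medium, and were taken in mid-log phase. Total RNA was labelled with biotin and hybridised to one-colour Affymetrix arrays. For strain background, mating type and the way the H2A alleles are carried, the answer is not given in the sources used here. Nothing in the labels says whether each replicate was its own culture. The spread behind every p-value is therefore that among these arrays and may be technical.

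Ribosome assembly begins in the nucleolus, where RNA polymerase I makes a long precursor rRNA. The small subunit processome, built from UTP proteins, the U3 snoRNA and many partners, packs and cuts the part that becomes the 40S subunit. A separate series of factors matures the 60S subunit, small nucleolar ribonucleoproteins modify the rRNA, and the RNA exosome trims and degrades precursor pieces. In growing yeast the genes of these factors are known as a coexpressed regulon that follows growth rate and nutrient supply. The names are historical: NOP stands for nucleolar proteins of several kinds, RRP for rRNA processing and UTP for proteins found with U3.

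The deposited signals are linear intensities scaled to a common trimmed mean of 500 on every array, so a level is relative to the other transcripts of its array. Differences are given as log2 H2A R78A minus wild type. They were tested with limma over all 5449 genes, two-sided, with Benjamini-Hochberg adjustment and a threshold of 0.05. On these arrays the differences of all genes moved with signal. The median log2 difference was 0.36 for the 157 genes with a mean log2 signal from 6 to 6.5, 0.03 for the 976 genes from 8.5 to 9, and -0.12 for the 391 genes from 10 to 10.5. The members lay between 8.19 and 10.57, all above the background level of 7.86. In RNA from whole cultures, fewer cells of a state and less RNA per cell cannot be told apart.

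The assembly factor genes lay slightly lower in the mutant, and the largest log2 difference, that of RRP1, was -0.26. RRP1, NOP7, UTP8, NOP1, RRP36, NOP13 and NOP4 fell, and UTP30 rose. That is 7 of 58 members lower (12.1%) and 1 higher (1.72%). Among all genes tested 9.18% were lower and 17.9% were higher, so the share of members that fell was near the background. On the deposited scale the difference was below 0 for 46 of the 58 members, against 45.6% of all genes, and the log2 differences ran from -0.26 to 0.25. The median over the members was -0.09, and over all genes tested 0.02. Signal moved with this result. The 1242 genes in the interquartile signal range of the members had a median of -0.06, with 63.5% below 0, 13.3% called lower and 7.17% called higher. Over the members' full signal range, 11.1% of genes were called lower and 10.2% higher. The part of signal in the members' median was not tested.

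**Figure D1:**
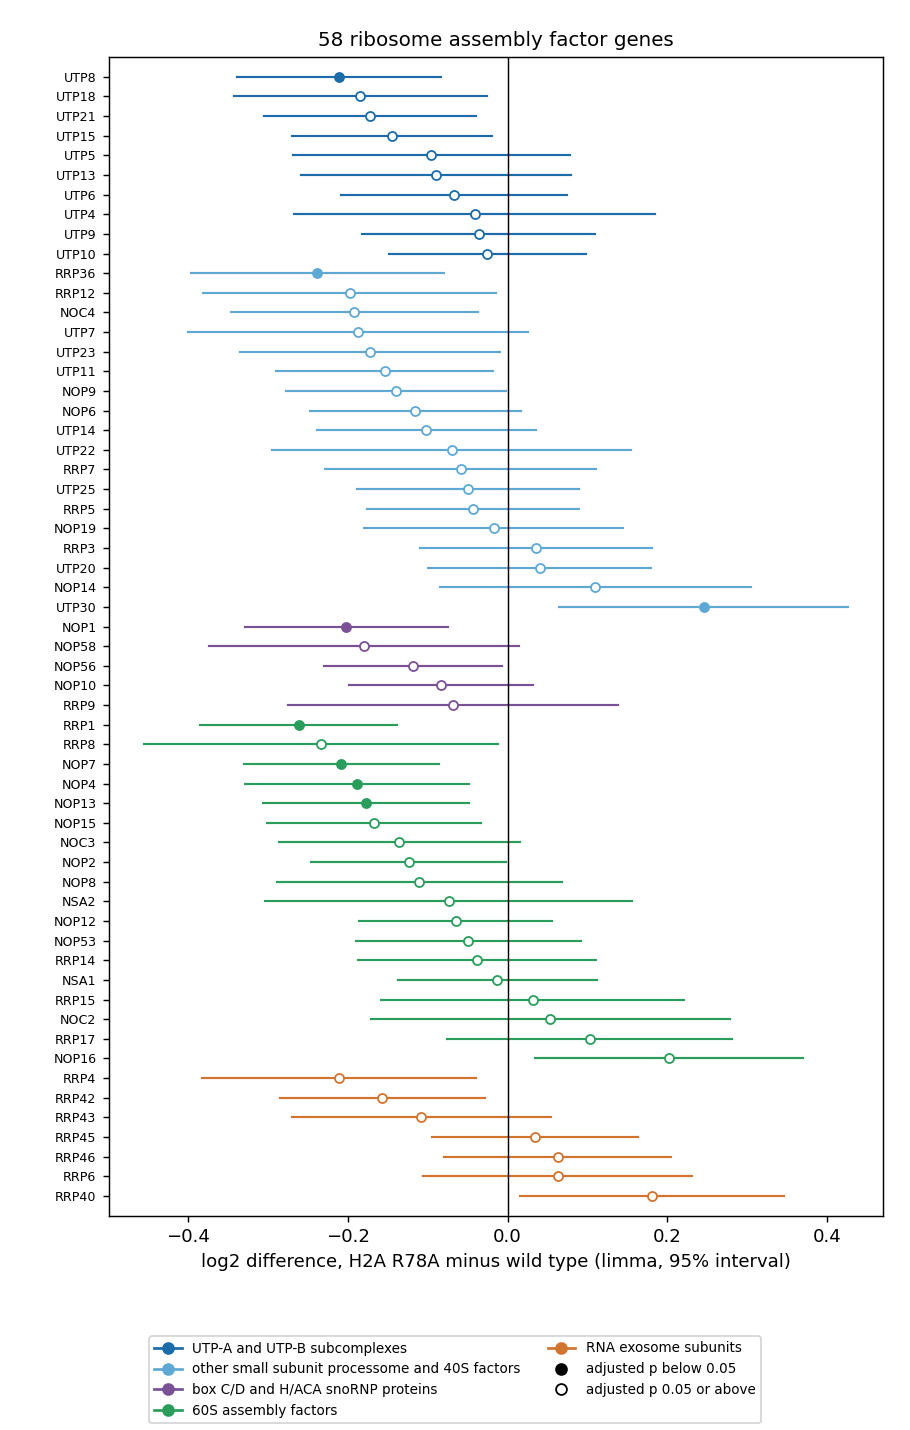
Log2 difference (x axis, H2A R78A minus wild type) of the 58 members, grouped by role, with bars for limma's 95% interval and filled points for an adjusted p below 0.05. Most points lie between -0.26 and 0, and UTP30, at 0.25, is the filled point on the right.

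**Figure D2:**
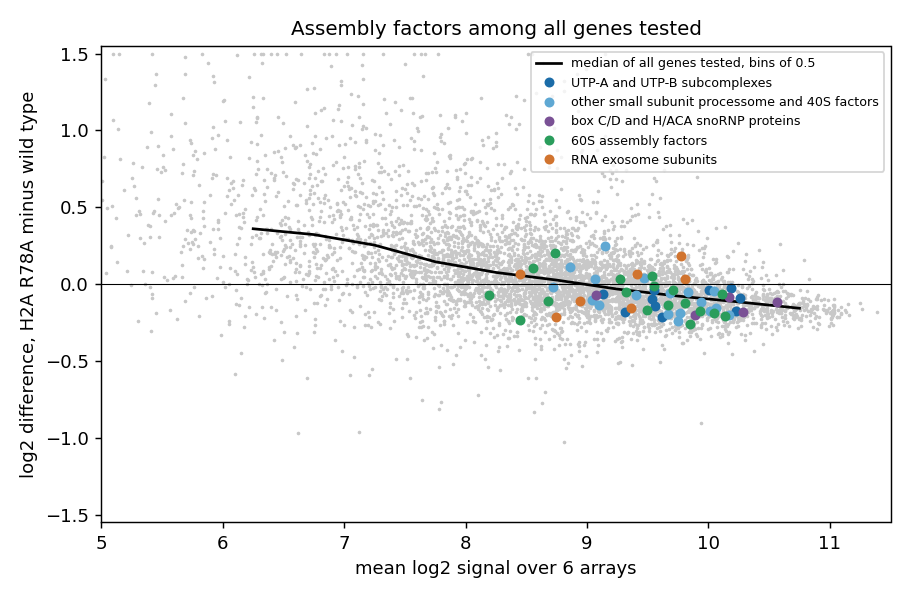
Log2 difference against mean log2 signal for all genes tested with a mean of at least 5 (grey, values beyond 1.5 drawn at 1.5), with the members coloured by role and the median of all genes in bins of 0.5 as a black line. The members lie between 8.19 and 10.57 on the x axis, where the line passes from 0.08 to -0.16.

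The median signal of the members was 815, 782 and 807 on the wild-type arrays and 782, 728 and 759 on the mutant arrays. The groups touched, since wild-type replicate 2 and mutant replicate 1 read about the same. The median over the members stayed below 0 on every scale tried, at -0.06 after quantile normalization, -0.05 with cyclic loess and -0.15 with median centring of the arrays. The median over all genes was then -0.03, -0.01 and -0.04. On these 3 scales, in the same order, 37, 35 and 51 of the 58 members were below 0. The counts were 3065, 2818 and 3044 among all 5449 genes. Among the 1242 genes in the interquartile signal range of the members they were 708, 662 and 934. Limma called 4 members lower and 0 higher after quantile normalization, against 9.98% and 10.4% of all genes, and 2 lower and 1 higher with cyclic loess, against 7.36% and 11.4%. With median centring it called 21 lower and 0 higher, against 16.1% and 14.9%. At an unadjusted limma p under 0.05 on the deposited scale, 21 members were lower and 3 higher, against 16.2% and 24.2% of all genes. In 21 members every mutant array lay below every wild-type array, and in NOP16 and UTP30 every mutant array lay above, against 17.4% and 25.7% of all genes. Of the 58 members, 34 (58.6%) were below 0 on all 4 scales and 6 were above 0 on all 4. Over all 5449 genes 38.6% were below 0 on all 4, and 1848 genes were above 0 on all 4. Among the 1242 genes in the interquartile signal range of the members, 53.3% were below 0 on all 4 and 308 genes were above.

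Replicate numbers were taken as pairs of arrays, which the labels do not state, and the number of calls depended on this. With the replicate number as a block, 20 members were lower and 3 higher in limma, against 15.7% and 23.7% of all genes. The 7 members lower without the block were among the 20, and RRP40 and NOP16 joined UTP30 as higher. Within pairs, the median difference of the members was -0.09, -0.11 and -0.11, and 32 members were lower in all 3 pairs. Over all genes 28.3% were lower in all 3 pairs, and in the interquartile signal range of the members 41.9% were. In that range the block called 22.7% of genes lower and 124 of 1242 higher. The count also depended on the arrays kept. Without mutant replicate 3 only RRP1 was lower, without wild-type replicate 1 RRP1 and NOP7 were, and without wild-type replicate 2 there were 4. It was 5 without mutant replicate 1, 7 without wild-type replicate 3 and 10 without mutant replicate 2. Each of these fits has fewer arrays, and the share of all genes called in them is not given here, so a general loss of power cannot be told apart.

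The factors of the 60S subunit held 4 of the 7 decreases. Of these 18 members 4 were lower and 0 higher, against 9.18% and 17.9% of all genes, with a median log2 difference of -0.09 against 0.02. At an unadjusted limma p under 0.05, 7 were lower and 1 higher, against 16.2% and 24.2% of all genes. With the replicate block the counts were 6 and 1, against 15.7% and 23.7%, and after quantile normalization 2 and 0, against 9.98% and 10.4%. RRP1 (YDR087C), an early factor needed to process the precursor of the large subunit rRNA, had signals of 1010.5, 985 and 1029.6 in wild type and 868, 817 and 839 in the mutant. Every mutant array read below every wild-type array. The means were 1008 ± 22.2 in wild type and 841 ± 26 in the mutant (SD, n = 3). On the log2 scale this was -0.26, standard error 0.06, with a limma adjusted p of 0.00655. RRP1 was the only member called under all 17 alternatives, with limma adjusted p-values from 0.00152 to 0.0452, and after quantile normalization the difference was -0.19.

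NOP7 (YGR103W), the yeast relative of human Pescadillo and a partner of Erb1 and Ytm1, read 1180.3, 1234 and 1223 in wild type and 1052, 1088 and 1008 in the mutant. The groups did not overlap, and the log2 difference was -0.21 (limma adjusted p = 0.019). NOP4 (YPL043W), an RNA-binding protein of early 60S particles, read 1147, 1178 and 1067 in wild type and 1032, 1009.5 and 933 in the mutant. The lowest wild-type array was still above the highest mutant array, and the log2 difference was -0.19 (limma adjusted p = 0.0482). NOP13 (YNL175C), a nucleolar RNA-binding protein, read 1078, 990.3 and 1044 against 939.8, 927 and 885. Its groups were also apart, with a log2 difference of -0.18 (limma adjusted p = 0.0458). After quantile normalization NOP7, NOP4 and NOP13 kept a difference below 0 (-0.11, -0.10 and -0.10) and no longer passed in limma, with adjusted p-values of 0.137, 0.249 and 0.242.

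RRP8, the methyltransferase that modifies an adenine of the large subunit rRNA, passed on some scales and not on others. It read 374, 352 and 415 in wild type and 368, 295 and 309.6 in the mutant, where replicate 1 overlapped wild type. The log2 difference of -0.23 did not pass (limma adjusted p = 0.107), and it passed after quantile normalization at -0.33 (0.034) and with cyclic loess at -0.30 (0.0442), and with the replicate block the limma adjusted p was 0.0498. NOP15, an RNA-binding factor of the same early particles, read 770.0, 791 and 729 against 698, 672 and 667. The groups were apart, but the difference of -0.17 did not pass without the replicate block (limma adjusted p = 0.0629, or 0.0348 with it). NOP2, an rRNA cytosine methyltransferase, gave -0.12 (0.118), NOC3 -0.14 (0.163) and NOP8 -0.11 (0.332).

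At the other end of the 60S list stood NOP16, a constituent of early 60S particles. It read 422, 381 and 391.5 in wild type and 477, 469.6 and 428 in the mutant. All mutant arrays were above all wild-type arrays, and the log2 difference of 0.20 did not pass without the replicate block (limma adjusted p = 0.0721, or 0.0352 with it). The exonuclease gene RRP17 gave 0.10 (limma adjusted p = 0.367) and NOC2 0.05 (0.723). NSA1 and NSA2, both proteins of pre-60S particles, gave -0.01 (limma 95% interval -0.14 to 0.11) and -0.07 (-0.30 to 0.16), so neither was called, with 0 of the 2 at an unadjusted limma p under 0.05.

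**Figure D3:**
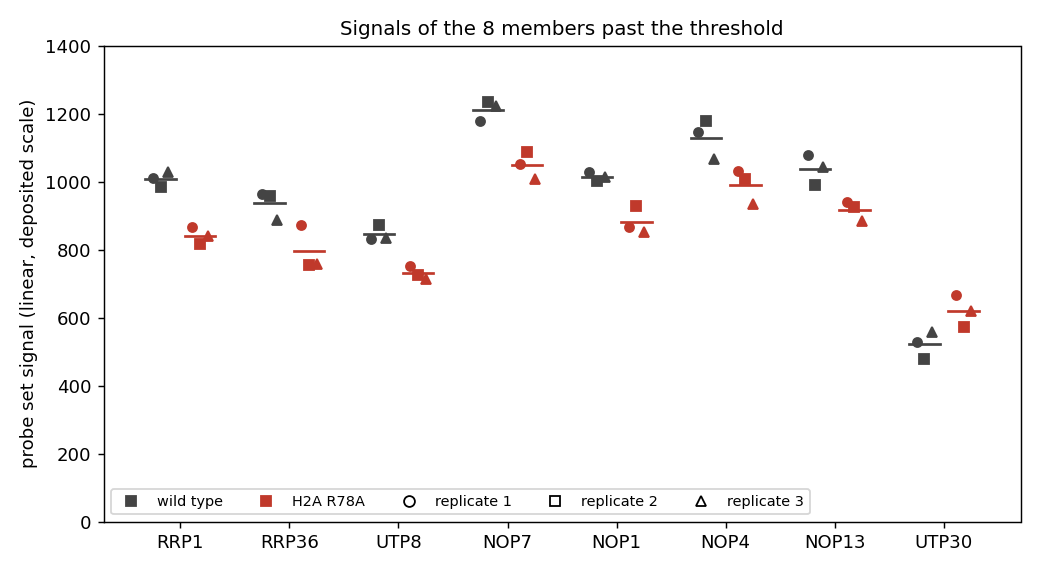
Linear probe set signal (y axis, from 0) of the 8 members past the threshold, with 3 wild-type arrays in grey and 3 H2A R78A arrays in red, replicates marked by symbol and group means as bars. The groups do not overlap in any of the 8, and UTP30 is the member whose mutant arrays, at 572 to 666, lie above wild type.

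The UTP-A and UTP-B subcomplexes are the first protein blocks to join the new transcript, and UTP-A proteins are also tied to transcription of the rDNA. All 10 measured UTP-named subunits were below 0, 1 of them past the threshold, with a median log2 difference of -0.09. Over all genes 45.6% were below 0, 9.18% were called lower and 17.9% higher. In the interquartile signal range of the members 63.5% were below 0. After quantile normalization 7 of the 10 were below 0, against 3065 of all 5449 genes. UTP8 (YGR128C), of UTP-A, read 831, 873 and 836 in wild type and 754, 726 and 713 in the mutant. The groups were well apart, with means of 846 ± 22.7 and 731 ± 20.8 and a log2 difference of -0.21 (limma adjusted p = 0.0221). It passed under 13 of 17 alternatives, among them quantile normalization (limma adjusted p = 0.0485).

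The other UTP-A members did not pass. UTP15 read 799, 781 and 805 against 727, 729.8 and 700.5, groups that did not overlap, and gave -0.15 (limma adjusted p = 0.0809). UTP5 gave -0.10, UTP4 -0.04, UTP9 -0.04 and UTP10 -0.03, with limma adjusted p-values of 0.39 to 0.791. UTP4, UTP9 and UTP10 had arrays of both groups interleaved. In UTP-B, UTP18 read 657, 729.6 and 649 in wild type and 619, 612 and 560.1 in the mutant, with a log2 difference of -0.18 (limma adjusted p = 0.0797). UTP21 read 1269.7, 1322 and 1236 against 1109, 1207 and 1083, with -0.17 (0.0557). Neither pair of groups overlapped, and both passed with the replicate block (limma adjusted p = 0.0332 and 0.0133). UTP13 and UTP6 gave -0.09 and -0.07. PWP2 and NAN1, further subunits of UTP-B and UTP-A whose names fall outside the rule and which were picked after their values were seen, gave -0.22 (limma adjusted p = 0.0324) and -0.17 (0.0525, or 0.0141 with the replicate block). DIP2, the remaining UTP-B subunit, gave -0.03 (0.769) with overlapping groups.

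The remaining 18 factors of the small subunit processome and the 40S path had 1 lower and 1 higher, against 9.18% and 17.9% of all genes. Their median log2 difference was -0.09. RRP36 (YOR287C), needed for the early cleavages that release the 40S precursor, read 966, 957 and 889 in wild type and 873, 755 and 759.7 in the mutant. Mutant replicate 1 came close to wild-type replicate 3 without crossing it. The means were 937 ± 42 and 796 ± 66.9, the log2 difference was -0.24 and the limma adjusted p was 0.0323, which became 0.125 after quantile normalization (-0.17).

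UTP30 (YKR060W), a protein of the processome with a domain like that of ribosomal protein L1, went the other way. It read 529, 478 and 559 in wild type and 666, 572 and 619 in the mutant. The highest wild-type array was just below the lowest mutant array, and the log2 difference was 0.25 (standard error 0.08, limma adjusted p = 0.0469). The direction held after quantile normalization and cyclic loess (0.23 and 0.26), where the limma adjusted p was 0.0651 and 0.0502. UTP30 passed under 7 of 17 alternatives, and its call ended when wild-type replicate 1 or 2 or mutant replicate 1 or 3 was left out, with limma adjusted p-values of up to 0.18.

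Several members of this group came close without passing. NOC4, which acts in 40S export together with Nop14, read 871, 932 and 807 against 749, 803 and 731, apart in both groups, with a log2 difference of -0.19 (limma adjusted p = 0.0646, or 0.0156 with the replicate block). NOP14 itself read 460.3, 397 and 487 against 505, 453 and 489, with overlapping groups and a difference of 0.11 (0.375). The partners thus differed in sign, and that difference was not tested. RRP12, a factor in the export of both subunits, read 1255, 1331 and 1122 against 1027, 1200.2 and 1007. Its groups overlapped only through replicate 2 of the mutant, and the difference of -0.20 did not pass without the block (limma adjusted p = 0.0996, or 0.0108 with it). UTP7, UTP23 and UTP11 gave -0.19, -0.17 and -0.15, and with the block they passed in limma (adjusted p = 0.0205, 0.0175 and 0.0463, against 0.171, 0.105 and 0.0866 without it). RRP5, needed for both subunits, gave -0.04. UTP22 and RRP7, both of the UTP-C subcomplex, gave -0.07 and -0.06 with 95% intervals of -0.29 to 0.15 and -0.23 to 0.11.

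The proteins of small nucleolar ribonucleoproteins guide rRNA methylation (box C/D) and pseudouridylation (box H/ACA). All 5 members were below 0 and 1 passed as lower, with a median of -0.12 on the deposited scale. Over all genes 45.6% were below 0, 9.18% were called lower and 17.9% higher. Mean log2 signals of the 5 ran from 9.08 to 10.57, and all genes from 10 to 10.5 had a median difference of -0.12. The part of signal was not tested. After quantile normalization 3 of 5 were below 0 with a median of -0.07. NOP1 (YDL014W), yeast fibrillarin and the methyltransferase of box C/D particles, read 1028, 1001 and 1015 in wild type and 867, 929 and 852 in the mutant. The groups were apart, the means were 1015 ± 13.3 and 883 ± 40.6, and the log2 difference was -0.20 (limma adjusted p = 0.0258). It was -0.13 and did not pass after quantile normalization (limma adjusted p = 0.102).

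NOP56 and NOP58, the paired scaffold proteins of the same particles, were not called. NOP58 read 1288, 1482 and 1222 against 1098, 1315 and 1109, so mutant replicate 2 lay above 2 wild-type arrays, and its difference was -0.18 (limma adjusted p = 0.152, or 0.0109 with the replicate block). NOP56 read 1546, 1574 and 1628 against 1427, 1454 and 1491, groups that did not overlap, with -0.12 (0.104, or 0.0388 with the replicate block), and it turned to 0.01 after quantile normalization and 0.02 with cyclic loess. NOP10, a small subunit of H/ACA particles, gave -0.08 (0.258) and turned to 0.02 on both of those scales. RRP9, specific to the U3 particle, gave -0.07 (0.618). SNU13 and CBF5, the other box C/D core protein and the pseudouridine synthase, lie outside the name rule and were named after their values were seen: they fell by 0.17 and 0.25 on the log2 scale (limma adjusted p = 0.0407 and 0.0243), and after quantile normalization neither passed (0.402 and 0.138). GAR1 and NHP2, the remaining H/ACA core proteins, gave -0.15 (limma adjusted p = 0.081, or 0.0293 with the replicate block) and -0.10 (0.21), and NAF1, an H/ACA assembly factor, gave 0.16 (0.241).

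The RNA exosome subunits split by sign. Of the 7 RRP-named subunits 3 were below 0 and 4 above, and limma called 0. Over all genes 45.6% were below 0, 9.18% were called lower and 17.9% higher. The median of the 7 was 0.03 on the deposited scale and -0.03 after quantile normalization. At an unadjusted limma p under 0.05, 2 were lower and 1 higher, against 16.2% and 24.2% of all genes. The replicate block gave the same counts as calls, against 15.7% and 23.7% of all genes. RRP4, an RNA-binding cap subunit, read 477, 463 and 443 in wild type and 411, 420.2 and 365 in the mutant. Its groups were apart, the log2 difference was -0.21 (limma adjusted p = 0.067, or 0.0265 with the replicate block), and it passed after quantile normalization at -0.27 (0.0351). RRP40, also a cap subunit, read 888, 779 and 807 against 998, 857 and 949. Mutant replicate 2 lay below wild-type replicate 1, so the groups overlapped, although RRP40 was higher in all 3 pairs. Its log2 difference was 0.18 (limma adjusted p = 0.0958, or 0.0191 with the replicate block), and it passed with cyclic loess at 0.25 (0.045).

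Of the ring subunits, RRP42 read 713, 689 and 688 against 622, 619 and 633, apart in both groups, with a log2 difference of -0.16 (limma adjusted p = 0.0679, or 0.0455 with the replicate block). RRP43 gave -0.11, RRP45 0.03 and RRP46 0.06, all with overlapping groups. RRP6, the nuclear exonuclease, gave 0.06 (95% interval -0.11 to 0.23). Subunits and cofactors with other names, chosen after their values were seen, spread wider. DIS3, the catalytic subunit, read 745, 787 and 765 against 605, 649 and 599 and fell by 0.31 on the log2 scale (limma adjusted p = 0.00446). CSL4, the third cap subunit, fell by 0.23 (0.0409). MPP6, a nuclear cofactor, read 301, 271 and 268 against 430.5, 391 and 440.0 and rose by 0.59 on the log2 scale (limma adjusted p = 5.96e-04), with 0.49 after quantile normalization (0.00194). DIS3 and MPP6 passed under all 17 alternatives. MTR3, SKI6 and LRP1 gave 0.05, -0.01 and 0.02.

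**Figure D4:**
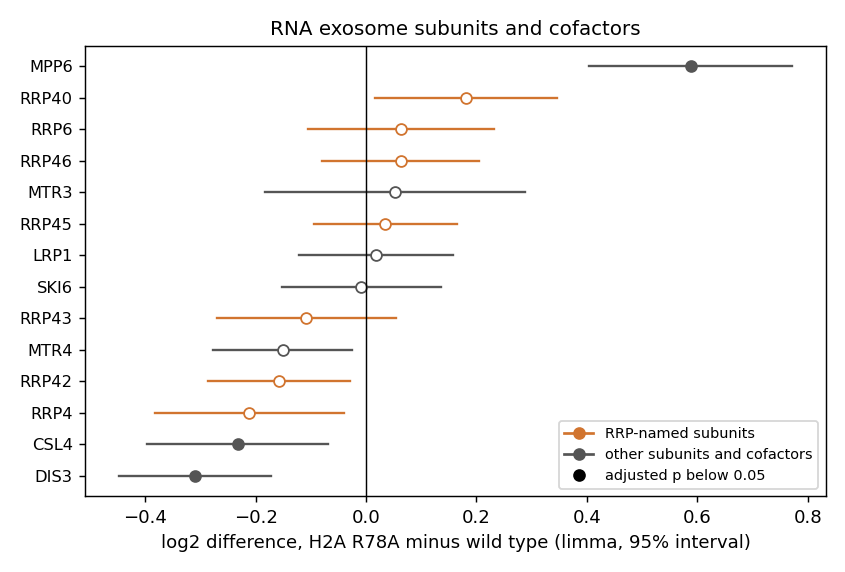
Log2 difference (x axis, H2A R78A minus wild type, with limma's 95% interval) of 14 RNA exosome subunits and cofactors, RRP-named subunits in orange and others in grey, filled where the adjusted p was below 0.05. DIS3 and CSL4 lie at the low end (-0.31 and -0.23) and MPP6 stands alone at the high end (0.59).

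Over all genes, limma called 9.18% lower and 17.9% higher, 45.6% were below 0 and the median was 0.02, and the counts by name prefix stand beside these. In the interquartile signal range of the members 63.5% of genes were below 0. Of 18 UTP genes 16 were below 0, with 1 lower and 1 higher in limma and a median of -0.09. Of 17 NOP genes 15 were below 0, with 4 lower, 0 higher and a median of -0.12. Of 18 RRP genes, which include the exosome, 11 were below 0, with 2 lower, 0 higher and a median of -0.05. At an unadjusted limma p under 0.05, 6 UTP, 8 NOP and 6 RRP genes were lower and 1 of each prefix was higher. Over all genes 16.2% were lower and 24.2% higher at that threshold. After quantile normalization limma called 1 UTP, 0 NOP and 3 RRP genes lower and 0 higher, against 9.98% and 10.4% of all genes. On that scale 12 UTP, 12 NOP and 10 RRP genes were below 0, against 3065 of all 5449 genes. The 3 NOC genes had 0 called, 1 lower at an unadjusted limma p under 0.05, and a median of -0.14. These medians were close to each other, and differences between prefixes were not tested.

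The rest of the pathway was also mostly below 0. Of 115 other ribosome assembly genes, a list drawn up from known roles, 16 were lower (13.9%) and 2 higher (1.74%), against 9.18% and 17.9% of all genes. The difference was below 0 for 98 of them (85.2%), against 45.6% of all genes, and their median log2 difference was -0.12 (-0.07 after quantile normalization). In the interquartile signal range of the 58 members, 13.3% of genes were lower, 7.17% higher and 63.5% below 0. With the replicate block 42 were lower and 3 higher, against 15.7% and 23.7% of all genes. In the signal range just named the block called 22.7% of genes lower and 124 of 1242 higher. The count also moved by more than 1.5-fold when 1 of several arrays was left out: 3 were lower without mutant replicate 3, 8 without mutant replicate 1, 4 without wild-type replicate 1 and 7 without wild-type replicate 2. It was 19 without wild-type replicate 3 and 22 without mutant replicate 2. The largest differences past the threshold were those of FYV7, MPP6, TMA16 and SHQ1. TMA16, which joins 60S precursors, read 608, 550.2 and 573 against 452, 454 and 427 and fell by 0.38 on the log2 scale (limma adjusted p = 0.0026), and it passed under all 17 alternatives. SHQ1, an assembly chaperone of H/ACA particles, fell by 0.32 (0.023). FYV7, a small subunit factor, was 1.58-fold higher (81.1 ± 3.64 to 128 ± 6.48, limma adjusted p = 0.00146), but its signal lies below the background level and the call ended after quantile normalization (0.27, limma adjusted p = 0.0655).

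Regulators of these genes showed no call. Limma called 0 of 7, against 9.18% lower and 17.9% higher among all genes. At an unadjusted limma p under 0.05, 0 were lower and 1 higher, against 16.2% and 24.2%. The replicate block called only IFH1, as higher (limma adjusted p = 0.027), against 15.7% lower and 23.7% higher among all genes. IFH1, a coactivator of ribosomal protein genes, read 102, 93.2 and 113 against 126, 128 and 129. The groups were apart, the log2 difference was 0.32 (limma adjusted p = 0.0569), and it turned to -0.06 after quantile normalization. SFP1, an activator of ribosome assembly genes, gave 0.04 (0.821) on the deposited scale and -0.33 (0.0387) after quantile normalization. Signals of IFH1, SFP1, FHL1 and STB3 lay below the background level. The kinase gene SCH9 gave -0.12 (0.292), and the repressor genes DOT6, TOD6 and STB3 gave 0.03, 0.03 and 0.12 with limma adjusted p-values of 0.795, 0.876 and 0.48, TOD6 and STB3 turning below 0 after quantile normalization.

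Some members had the same replicate high or low in both groups. In 10 members (17.2%) replicate 2 was the highest array of both groups, and in 16 (27.6%) it was the lowest of both. Over all 5449 genes the shares were 17.4% and 23.7%, near those of the members. UTP7 is an example of the first kind, with 931, 1044 and 819.8 in wild type and 774, 914 and 762 in the mutant, and NOP58 and RRP12 also had replicate 2 highest in both groups. UTP4 is an example of the second, with 765, 682 and 839.6 in wild type and 789.9, 633 and 803 in the mutant, and UTP22 and NOC2 also had replicate 2 lowest in both. These 6 were picked after their values were seen. The other replicates lay further from the shares of all genes. Replicate 3 was the lowest of both groups in 14 members (24.1%, against 14.3% of all genes) and the highest in 6 (10.3%, against 15.4%). Replicate 1 was the highest of both in 12 (20.7%, against 14.7%) and the lowest in 2 (3.45%, against 8.22%). Across the 58 members, which share arrays, distances from the group mean correlated with r = 0.52 between the replicate 2 arrays, 0.56 between the replicate 3 arrays and -0.10 between the replicate 1 arrays. Among arrays of different number, wild-type replicate 3 and mutant replicate 1 had r = 0.43, above the replicate 1 pair, and the remaining 5 combinations ran from -0.66 to 0.14. With the block, which takes up shifts shared by number, UTP7, NOP58 and RRP12 passed as lower (limma adjusted p = 0.0205, 0.0109 and 0.0108), while UTP4 and UTP22, whose differences were -0.04 and -0.07, did not (0.584 and 0.384).

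**Figure D5:**
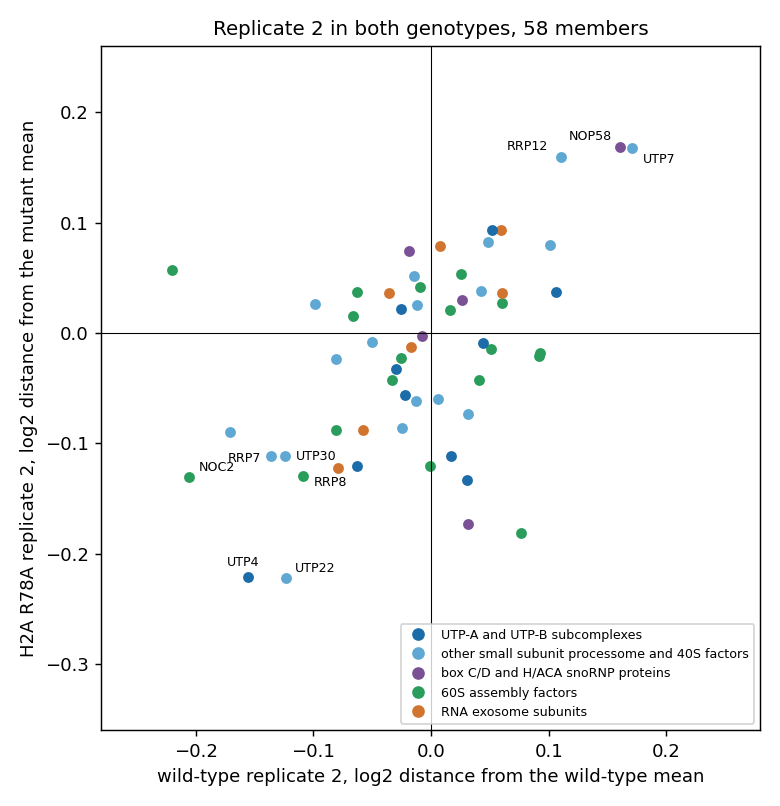
Log2 distance of replicate 2 from its group mean in wild type (x axis) and in H2A R78A (y axis) for the 58 members, coloured by role. NOP58, UTP7 and RRP12 lie at the upper right and UTP4, UTP22 and NOC2 at the lower left, and r over the 58 members was 0.52.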

How the data were processed

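Probe set intensities on a linear scale were used as deposited. Per the submitters' processing notes MAS5 and limma were used (version numbers: not given in the sources used here). On every array the trimmed mean (2% at each end) was 500. Of 5900 probe sets 5498 named 1 yeast gene, 12 symbols were updated through the R64 gene table, and the probe set with the highest mean was kept, leaving 5449 genes. Intensities were taken to log2, and limma 3.58.1 (R 4.3.3) tested mutant against wild type, using lmFit and then eBayes with its trend option. Signals are means ± SD, and the number of arrays limits the precision. The background level was the 25th percentile of mean log2 signals. Figures were drawn with matplotlib 3.10.9.

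Members, lists and tests were chosen with earlier results of these data known. Values per array are given for members past the threshold and the leading members of each role list. Named were all members past the threshold, the 4 largest absolute differences of each role list, the 4 largest past the threshold among other assembly genes, and 7 regulators. Further genes were picked with their values in view. The 58 members were the 58 symbols of the gene table that match the rule.

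Replicate numbers were taken as pairs, because over all genes the residuals of same-numbered arrays had correlations of 0.21, 0.38 and 0.43, each above 0.1. Wild-type replicate 3 and mutant replicate 1 also passed 0.1, at 0.15, so this mark alone does not single out pairs by number. The labels do not state the pairing, and it was read from the same arrays that the block was then fitted to. The limma procedure was tested on simulated data, with planted changes larger than any difference of the members and noise drawn independently for each array. Recovery of differences as small as those of the members was not tested. Alternatives were quantile normalization, median centring, cyclic loess, the mean of all probe sets, a filter at the background level, low values raised to a floor, eBayes without its trend or with its robust option, array weights, the replicate block with and without quantile normalization, and leaving out each array. Promoter and protein sequences were not analysed here.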

Additional observations from a re-analysis of the deposited data

How the results depend on the processing

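Against 7 members lower and 1 higher, limma gave 4 and 0 after quantile normalization, 2 and 1 with cyclic loess, 21 and 0 with median centring, 3 and 0 without a variance trend, 21 and 1 with array weights, 20 and 3 with the replicate block, and 7 and 2 with the replicate block and quantile normalization. With the background filter or with low values raised 0 were higher. Leaving out 1 array gave 1 to 10 lower and 0 to 2 higher. Over all genes limma called 9.18% lower and 17.9% higher on the deposited scale. Quantile normalization gave 9.98% and 10.4%, cyclic loess 7.36% and 11.4%, median centring 16.1% and 14.9%, and the replicate block 15.7% and 23.7%. For the other alternatives the share of all genes called is not given here, so a general change in calls cannot be told apart. The median of the members was -0.15 with median centring and -0.10 to -0.09 with 1 array left out. Against 16 other assembly genes lower and 2 higher, 9 and 1 were found after quantile normalization, 7 lower with cyclic loess, 46 with median centring, 7 without trend, 50 with array weights and 42 with the replicate block, 1 higher with the background filter, and 3 to 22 lower and 2 to 3 higher with 1 array left out. These counts stand beside the same shares of all genes, and how far a general change in calls enters them was not tested. Over 34 named genes, 431 values were counted as keeping direction and side of the threshold, 62 lost a call, 53 gained one and 27 changed sign, and the cause was not tested. Among those counted as kept are FHL1 and SFP1 with low values raised. All their arrays were then at the floor, so these values hold no direction.

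The sign changes were all in genes without a call on the deposited scale. After quantile normalization, with or without the replicate block, they were FHL1 (-0.32), IFH1 (-0.062), SFP1 (-0.33), STB3 (-0.11), TOD6 (-0.068), NOP10 (0.021) and NOP56 (0.013). With cyclic loess they were FHL1 (-0.28), SFP1 (-0.31), STB3 (-0.080), TOD6 (-0.039), NOP10 (0.022) and NOP56 (0.022), and with median centring DOT6 (-0.031), SFP1 (-0.016) and TOD6 (-0.033). TOD6 was -0.035 with array weights. With 1 array left out TOD6 ran from -0.093 (without mutant replicate 1) to 0.12, DOT6 from -0.033 (without mutant replicate 2) to 0.069 and SFP1 from -0.056 (without wild-type replicate 2) to 0.11. With 3 arrays a group the standard errors of members were 0.05 to 0.10, and the median of the members moved between -0.15 and -0.05 over the 4 scales.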
